A study of Mus musculus with 17 samples.

Results

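The 10 genes described here are Acta2, Actg2, Myh11, Myl9, Mylk, Cnn1, Tagln, Cald1 and Oxtr, whose products contract smooth muscle and the myoepithelium of the mammary gland or set off that contraction, and Trp63, which encodes the transcription factor p63 of the same cells. They were taken by gene name from the scanner output of Agilent whole mouse genome arrays. With 28786 gene names on the array, these 10 had 21 of 41174 probes, printed as 30 of 43379 spots that are not controls. Each gene is given by its brightest probe unless another probe is named.

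The samples were 17 mammary tumors of FVB mice carrying a CUX1 transgene under MMTV regulatory sequences, which drive expression in the mammary epithelium. CUX1 is a transcription factor, and the mice carried either its p75 isoform (p75-CUX1, 9 tumors) or its p110 isoform (p110-CUX1, 8 tumors). Epithelial tumor cells were cut from frozen sections by laser, their RNA was amplified in 2 rounds, and each tumor was hybridized with its dyes swapped against amplified universal mouse reference RNA. By histology there were 2 adenomyoepitheliomas (p75-90 and p110-374), 4 adenosquamous carcinomas, all p75 (p75-47, p75-80, p75-94 and p75-101), 9 solid carcinomas (3 p75 and 6 p110), 1 adenocarcinoma (p75-216) and 1 adenoma (p110-98). Each number names 1 tumor-bearing mouse, and no mouse without the transgene was among the samples. The p75 tumors were scanned in 1 year and the p110 tumors in a different one, and transgene and scan year cannot be told apart.

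Myoepithelial cells form the outer, basal layer of mammary ducts and alveoli and squeeze milk toward the nipple when oxytocin binds its receptor on them. The signal raises calcium, myosin light chain kinase then acts on the regulatory light chain of myosin, and myosin pulls on smooth muscle actin filaments. p63 is needed for stratified and glandular epithelia to form and persist and is a routine nuclear marker of the basal layer, whereas smooth muscle actin and calponin are markers of the contractile state. An adenomyoepithelioma is a tumor in which both luminal and myoepithelial cells proliferate.

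Many contractile genes are switched on by serum response factor (SRF), which binds a DNA element called the CArG box. Promoter sequences from RefSeq (GRCm38.p6, a later build than the mm7 positions printed for the array probes) were at hand for 6 of the 10 genes, Acta2, Myl9, Mylk, Cnn1, Cald1 and Oxtr. The box is 10 bases long, reads the same way on both strands and was searched from 250 bases before to 50 bases after each start site. Of these windows, only the bases before the start are printed. The 2 promoters that held a match are shown because Acta2 and Myl9, which lie on different chromosomes, had much the same profile over the tumors (below), with the matches in capitals, 5′ to 3′ on the strand of the gene:
Acta2 (chr19:34255374-34255623, minus strand): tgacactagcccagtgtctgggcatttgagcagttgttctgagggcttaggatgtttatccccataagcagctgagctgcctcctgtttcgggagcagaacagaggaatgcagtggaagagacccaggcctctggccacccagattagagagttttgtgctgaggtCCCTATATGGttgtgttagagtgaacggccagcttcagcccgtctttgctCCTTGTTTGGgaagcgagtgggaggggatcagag
Myl9 (chr2:156775214-156775463, plus strand): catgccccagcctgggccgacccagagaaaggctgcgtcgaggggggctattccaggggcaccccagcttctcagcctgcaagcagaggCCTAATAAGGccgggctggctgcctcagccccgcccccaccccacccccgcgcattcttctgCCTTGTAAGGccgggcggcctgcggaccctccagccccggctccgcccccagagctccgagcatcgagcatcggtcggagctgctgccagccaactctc
The match CCTAATAAGG of Myl9, at 161 to 152 bases before the start, had no mismatch. Of 32851 promoters, 1.63% held such a box in the same window, which includes the bases after the start. The other matches, CCTTGTAAGG in Myl9 at 99 to 90 bases and CCCTATATGG and CCTTGTTTGG in Acta2 at 84 to 75 and 34 to 25 bases before the start, each differed at 1 of the middle 6 positions, and 9.98% of promoters held a box with at most 1 such mismatch. None was found in these windows of Mylk, Cnn1, Cald1 or Oxtr, which says only that the letters are not there. A match is a description of the sequence.

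A value below is the log2 ratio of tumor to reference color, averaged over the arrays of a tumor, and a gene is called measured in a tumor if each of its arrays had the tumor channel well above background there. No member was flagged as saturated in the tumor color, and saturation of the reference color was not examined. The share of all probes measured ran from 18.3% in p110-374 to 61.9% in p75-129 and was 27.3% in p75-90, so both adenomyoepitheliomas lay in the lower part of that range. In p110-374, p110-98 and p110-225 the reference was 12.1, 13.3 and 9.05 times brighter than the tumor at the 95th percentile of signal, against at most 4.14 times in the other 14 tumors. Precision is limited by how few tumors and arrays there were.

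The adenomyoepitheliomas had the 2 highest ratios of all 17 tumors for 4 of the 10 genes, Acta2, Cnn1, Mylk and Myl9, a place that both held for 1.66% of all probes. Against the solid carcinomas their means were higher for 9 of 10 genes (7 with median centering, where each array is scaled by its median ratio alone), with a median difference of 1.99 on the log2 scale (0.64 with median centering), where the median over all probes was 0.0036. The count includes Cald1, whose tumor signal was not above background in either adenomyoepithelioma. Against the adenosquamous carcinomas 8 of 10 were higher (6 with median centering), Cald1 again among them, with a median of 2.20 (0.61 with median centering). Trp63 did not share this place, since its highest values were in adenosquamous carcinomas. In tumor pieces such as these, more cells of a type and more RNA in each cell cannot be told apart. No gene of the 10 passed an adjusted p of 0.05 in limma, where 0.0607% of all probes were called higher against solid and 0.0316% against adenosquamous carcinomas. With 2 adenomyoepitheliomas the smallest exact permutation p is 0.0182 against 9 solid and 0.0667 against 4 adenosquamous carcinomas.

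**Figure D1:**
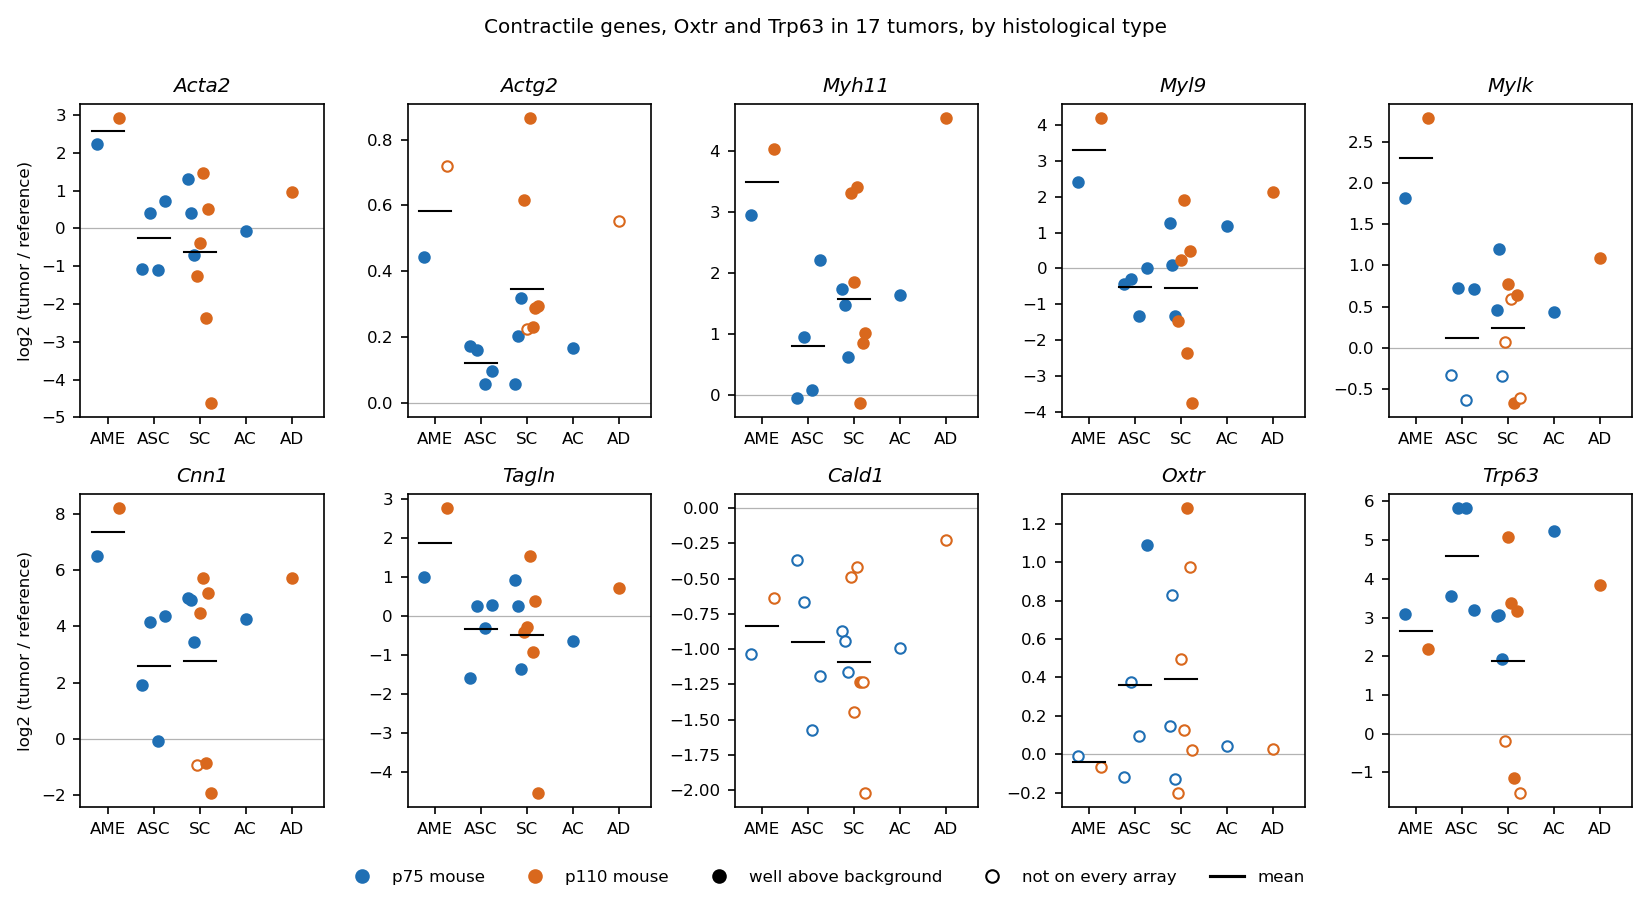
Log2 ratio of tumor to reference for each of the 10 genes, 1 panel a gene and 1 point a tumor (blue p75, orange p110, open where not measured), in adenomyoepitheliomas (AME), adenosquamous carcinomas (ASC), solid carcinomas (SC), the adenocarcinoma (AC) and the adenoma (AD), with bars at the means of the groups of more than 1 tumor and a scale of its own in each panel. The adenomyoepitheliomas sit at the top for Acta2 (2.24 and 2.91), Cnn1 (6.50 and 8.19), Mylk (1.81 and 2.78) and Myl9 (2.43 and 4.20), and the adenosquamous carcinomas reach highest for Trp63 (5.82).

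Acta2 encodes smooth muscle α-actin, the thin filament on which myosin pulls. Its probe lies at chr19:33942803-33942862 (mm7, as all positions of probes below), is printed as 10 spots and was measured in all 17 tumors. The log2 ratio was 2.24 in p75-90 and 2.91 in p110-374, and it was -1.07, 0.41, -1.11 and 0.71 in the adenosquamous carcinomas p75-47, p75-80, p75-94 and p75-101. The solid carcinomas ran from -4.62 in p110-416 through a median of -0.38 to 1.47 in p110-225, while the adenocarcinoma was at -0.08 and the adenoma at 0.97. Both adenomyoepitheliomas thus stood above every other tumor, and the solid carcinomas were spread widely below them. The mean of 2.58 ± 0.47 (SD, n = 2) was 3.20 above that of the solid carcinomas (-0.63 ± 1.94, n = 9), a 9.21-fold ratio (SE 1.24, limma adjusted p = 0.423, exact permutation p = 0.0727). Over the adenosquamous carcinomas (-0.26 ± 0.96, n = 4) the difference was 2.84 (SE 1.37, limma adjusted p = 0.414). Median centering gave 1.67 and 1.10, and the mean of all 5 Acta2 probes 1.31 and 1.10.

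Actg2 encodes smooth muscle γ-actin, the actin of gut muscle. Its ratios were above 0 and below 1 in every tumor. They were 0.44 and 0.72 in p75-90 and p110-374, 0.17, 0.16, 0.06 and 0.10 in the adenosquamous carcinomas in the same order, and 0.06 to 0.86 with a median of 0.29 in the solid carcinomas, with 0.17 in the adenocarcinoma and 0.55 in the adenoma. It was measured in 14 tumors, p75-90 among them and p110-374 not (chr6:83548244-83548570, across an intron by the array's design). The adenomyoepitheliomas overlapped the solid carcinomas and lay above all adenosquamous carcinomas. The difference of means was 0.24 against solid (SE 0.16, adjusted p = 0.647) and 0.46 against adenosquamous carcinomas (SE 0.18, adjusted p = 0.315) in limma, and both turned below 0 with median centering of the arrays instead of loess. The former was 0.10 without p110-374 and 0.38 without p75-90.

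Myh11 encodes the heavy chain of smooth muscle myosin, the motor of the contractile apparatus. It was measured in all 17 tumors (chr16:13741638-13744562, across an intron), at a log2 ratio of 2.96 in p75-90 and 4.04 in p110-374. The adenosquamous carcinomas were at -0.05, 0.96, 0.09 and 2.23, the solid carcinomas ran from -0.13 through 1.48 to 3.42, and the adenocarcinoma was at 1.65. The highest ratio, 4.54, was in the adenoma, and p75-90 lay inside the range of the solid carcinomas. The mean was 1.92 above that of the solid carcinomas (3.50 ± 0.76, n = 2, against 1.58 ± 1.18, n = 9, SE 0.83, limma adjusted p = 0.468) and 2.69 above that of the adenosquamous carcinomas (SE 0.92, limma adjusted p = 0.271). The differences were 0.46 and 0.81 with median centering and 1.08 and 5.22 in the tumor color without the reference. This probe's signal from the common reference differed by scan year. It averaged 7.35 on the log2 scale in the p75 tumors (7.10 to 8.16) and 12.6 in the p110 tumors (10.6 to 13.6), a difference of 5.26 or 38.4-fold, where 97% of all probes differed by less than 1 and 43 of them (0.104%) by more than 5. For the other 9 genes the reference differed by -0.93 (Myl9) to 0.56 (Cald1). The part of this step in the Myh11 ratios was not tested. Within each year p75-90 stood above its 3 p75 solid carcinomas (0.62 to 1.75) and p110-374 above its 6 p110 solid carcinomas (-0.13 to 3.42).

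**Figure D2:**
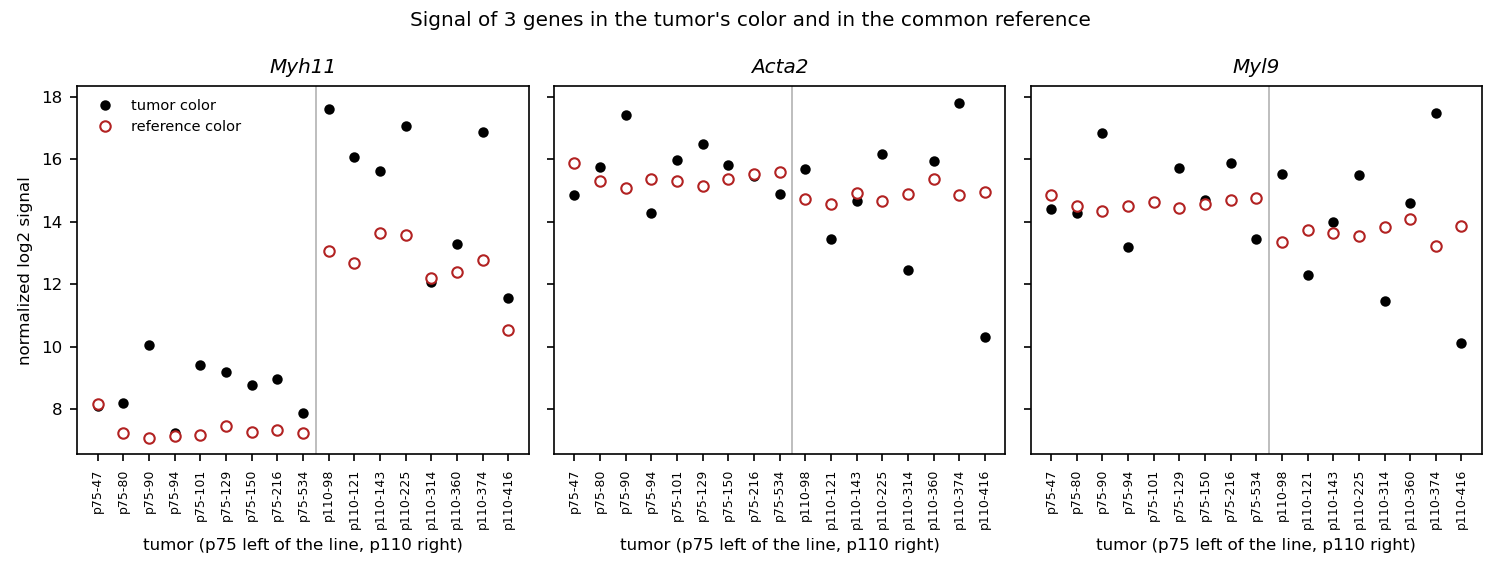
Normalized log2 signal of the tumor color (filled) and of the reference color (open) for Myh11, Acta2 and Myl9 in each tumor, p75 tumors left of the line and p110 tumors right of it. The reference signal of Myh11 steps from a mean of 7.35 to 12.6 between them, against a difference of -0.53 for Acta2 and -0.93 for Myl9.

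Myl9 encodes the regulatory light chain of smooth muscle myosin, on which the kinase acts. It was measured in every tumor (chr2:156522455-156522514). The ratio was 2.43 in p75-90 and 4.20 in p110-374, and it was -0.45, -0.28, -1.32 and 0.02 in the adenosquamous carcinomas. In the solid carcinomas it ran from -3.77 in p110-416 through 0.10 to 1.91 in p110-225, with 1.18 in the adenocarcinoma and 2.14 in the adenoma. Both adenomyoepitheliomas lay above the rest, p75-90 by a narrow margin over the adenoma. Their mean (3.31 ± 1.25, n = 2) was 3.86 above the solid carcinomas (-0.54 ± 1.82, n = 9), a 14.5-fold ratio with an unadjusted p of 0.00533 and an adjusted p of 0.317 in limma (SE 1.16, exact permutation p = 0.0364). It was 3.82 above the adenosquamous carcinomas (-0.51 ± 0.58, n = 4, SE 1.28, limma adjusted p = 0.264). With median centering these were 2.33 and 1.99.

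Mylk encodes myosin light chain kinase, which switches smooth muscle myosin on when calcium rises. The ratio was 1.81 in p75-90 and 2.78 in p110-374, against -0.33, 0.73, -0.63 and 0.72 in the adenosquamous carcinomas and -0.67, 0.47 and 1.20 as the lowest, the median and the highest of the solid carcinomas. The adenocarcinoma was at 0.44 and the adenoma at 1.09. No other tumor reached either adenomyoepithelioma. In p110-374 the ratio was 2.04 with the tumor in Cy5 and 3.55 with the tumor in Cy3. The gene was measured in 11 tumors, both adenomyoepitheliomas, 2 adenosquamous and 5 solid carcinomas among them (chr16:34671521-34671580). The difference from the solid carcinomas was 2.06, or 4.17-fold (2.30 ± 0.68, n = 2, against 0.24 ± 0.66, n = 9), with SE 0.50, an unadjusted p of 0.00119 and an adjusted p of 0.239 in limma. The exact permutation p was 0.0182, the smallest the design allows. Against the adenosquamous carcinomas (0.12 ± 0.71, n = 4) it was 2.18 (SE 0.56, limma adjusted p = 0.209). The 2 differences were 1.05 and 1.06 with median centering, 1.27 and 1.30 for the mean of the 3 Mylk probes, and 3.62 and 3.87 with the scanner software's own normalized signals.

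Cnn1 encodes calponin 1, which binds actin and restrains the myosin motor. It was measured in all tumors but the solid carcinoma p110-121 (chr9:21988172-21988231). The ratio was 6.50 in p75-90 and 8.19 in p110-374, and 1.93, 4.14, -0.05 and 4.37 in the adenosquamous carcinomas. The solid carcinomas ran from -1.92 through 4.46 to 5.73, the adenocarcinoma was at 4.26 and the adenoma at 5.71. Most tumors were thus well above the reference, with p75-94, p110-121, p110-314 and p110-416 below it and the adenomyoepitheliomas above all others. The mean (7.34 ± 1.20, n = 2) exceeded that of the solid carcinomas (2.78 ± 3.09, n = 9) by 4.56, a 23.6-fold ratio (SE 2.05, limma adjusted p = 0.479, exact permutation p = 0.0727), and that of the adenosquamous carcinomas (2.60 ± 2.08, n = 4) by 4.75 (SE 2.27, limma adjusted p = 0.409). Median centering left 2.93 and 2.77.

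Tagln encodes transgelin (SM22α), an actin-binding protein of smooth muscle. It was measured in all 17 tumors (chr9:45888137-45888196). The ratio was 0.998 in p75-90 and 2.77 in p110-374, against -1.59, 0.26, -0.31 and 0.29 in the adenosquamous carcinomas and -4.54, -0.29 and 1.53 as the lowest, the median and the highest solid carcinoma. The adenocarcinoma was at -0.64 and the adenoma at 0.73. The adenomyoepitheliomas lay above all adenosquamous carcinomas, and p75-90 lay below the solid carcinoma p110-225. The difference was 2.37 against the solid carcinomas (SE 1.15, adjusted p = 0.514) and 2.22 against the adenosquamous carcinomas (SE 1.28, adjusted p = 0.511) in limma. They were 0.82 and 0.41 with median centering, and 1.49 and 1.34 without p110-374.

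Cald1 encodes caldesmon, which like calponin holds back the myosin motor on actin. Its ratios lay below 0 in all 17 tumors, between -2.02 (p110-416) and -0.23 (the adenoma p110-98). The tumor's color was measured only in p110-314, whereas the reference was well above background on 37 of 38 arrays (chr6:34705041-34705100). In the other 16 tumors at least 1 array had a tumor signal not above background, and in both adenomyoepitheliomas every array did. The adenomyoepitheliomas, at -1.03 and -0.64, lay within the range of the adenosquamous (-1.57 to -0.36) and solid carcinomas. The differences of 0.25 (SE 0.37) and 0.11 (SE 0.41) had adjusted p-values of 0.855 and 0.953 in limma. Under the other settings and with a tumor left out they ran from -0.0432 to 1.15 and from -0.10 to 0.49.

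Oxtr encodes the oxytocin receptor, the trigger of milk ejection. It was measured in 2 tumors, the adenosquamous carcinoma p75-101 (ratio 1.09) and the solid carcinoma p110-314 (1.28), which also had the highest ratios. Both adenomyoepitheliomas were near 0, at -0.01 and -0.06, and not measured. The reference was well above background on 2 of 38 arrays (chr6:112637108-112637169), so most ratios of this probe compare background with background, and the other 13 tumors ran from -0.20 to 0.98. The differences from solid and adenosquamous carcinomas, -0.43 (SE 0.38) and -0.40 (SE 0.42), had limma adjusted p-values of 0.740 and 0.768. With the scanner software's own normalized signals they were -1.41 and -1.46, and without p75-101 the latter was -0.15.

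Trp63, the gene of the basal factor p63, was measured in 15 of the 17 tumors, all but the solid carcinomas p110-121 and p110-416 (chr16:25553466-25553525). The ratio was 3.1 in p75-90 and 2.20 in p110-374. It was 3.55, 5.82, 5.82 and 3.19 in the adenosquamous carcinomas p75-47, p75-80, p75-94 and p75-101, and 5.23 in the adenocarcinoma and 3.85 in the adenoma. The solid carcinomas ran from -1.54 through 3.03 to 5.09, with 3 of them (p110-121, p110-314 and p110-416) below 0. The adenomyoepitheliomas ranked 10 and 13 of the 17 tumors and lay below all 4 adenosquamous carcinomas. Their mean (2.65 ± 0.64, n = 2) was 1.95 below the adenosquamous mean (4.60 ± 1.42, n = 4, SE 1.66, limma adjusted p = 0.692, exact permutation p = 0.133). Against the solid carcinomas (1.87 ± 2.29, n = 9) it was 0.78 higher (SE 1.50, limma adjusted p = 0.895), a sign that turned when arrays were centered on their median (-0.16). This difference was 2.50 with the scanner software's own normalized signals and 0.19 for the mean of the 3 Trp63 probes. It was 0.33 without p75-90, 1.24 without p110-374, 1.19 without p110-143, 0.41 without p110-314 and 0.36 without p110-416. The difference from the adenosquamous carcinomas was -3.16 with median centering and -0.72 for the mean of the probes.

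**Figure D3:**
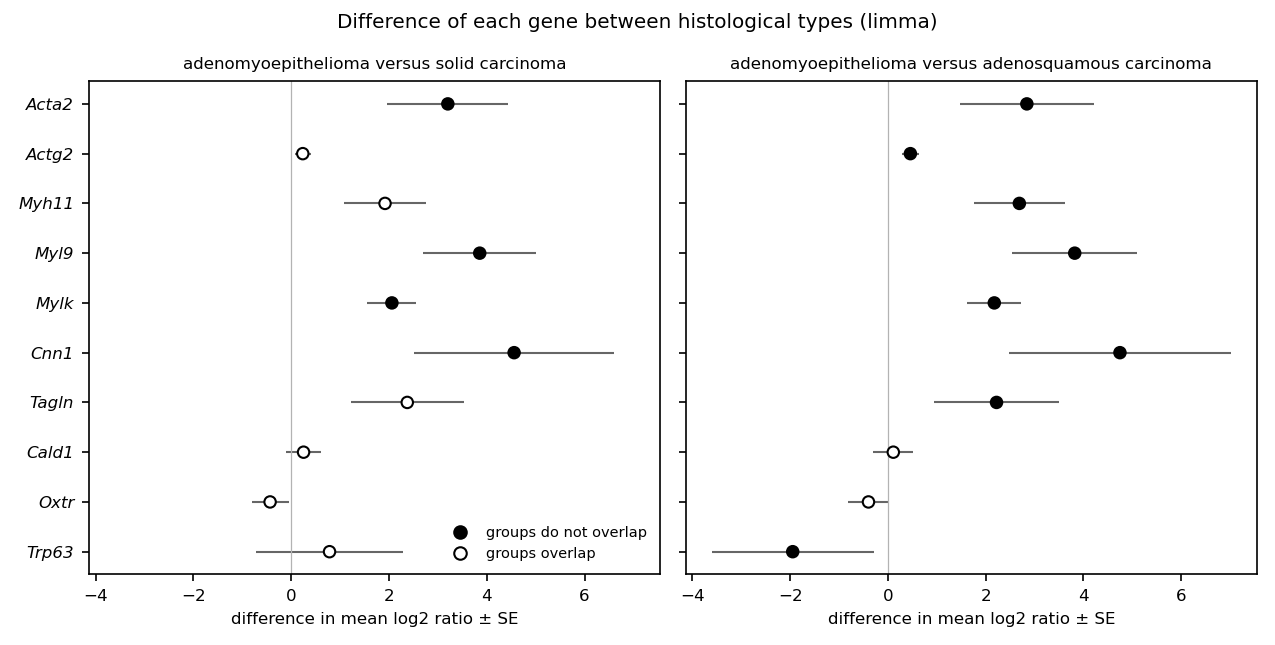
Difference in mean log2 ratio with its standard error (lines) for each gene, adenomyoepitheliomas minus solid carcinomas on the left and minus adenosquamous carcinomas on the right, filled where the groups do not overlap. The differences of Acta2, Myh11, Myl9, Mylk, Cnn1 and Tagln lie between 1.92 and 4.75 in both panels and those of Actg2, Cald1 and Oxtr within 0.46 of 0, while Trp63 is at 0.78 (a sign that turns with median centering) and -1.95.

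Counted over the list, none of the 10 genes was called against the solid carcinomas at a limma adjusted p under 0.05, where 0.0607% of all probes were called higher and 0.00486% lower in the adenomyoepitheliomas (25 and 2 probes). Before adjustment 5 of the 10 were under 0.05, as were 10.1% of all probes. Without overlap between the groups, 4 of 10 were higher (Acta2, Cnn1, Mylk and Myl9; 5 of the 21 probes) against 3.69% of all probes, and 0 were lower against 2.77%. With median centering 1 of 10, Mylk, was higher without overlap, against 4.95% of all probes. Against the adenosquamous carcinomas 0 of 10 were called, with 0.0316% of probes called higher (13 probes), and before adjustment 4 were under 0.05 against 12.8% of all probes. There 7 of 10 lay higher without overlap (Acta2, Actg2, Myh11, Cnn1, Tagln, Mylk and Myl9; 11 of the 21 probes) against 14.1% of all probes, and 1 of 10, Trp63, lay lower against 12.7%. Median centering left 3 of 10 higher (Cnn1, Mylk and Myl9) against 19% of all probes. The signs of the Acta2, Myh11, Myl9, Mylk, Cnn1 and Tagln differences were the same under each scaling, while all 6 were smaller with median centering, as given with each gene. The 2 comparisons share the adenomyoepitheliomas.

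Other probes of the same genes were mostly dimmer. A second Acta2 probe, measured in 16 tumors, had ratios of 1.62 and 1.86 in the adenomyoepitheliomas and a difference of 2.37 from the solid carcinomas (SE 1.12, limma adjusted p = 0.501), with p75-129 inside the range at 1.78. A second Mylk probe gave 1.75 and 1.84, above all solid carcinomas, and a difference of 1.77 (SE 0.53, limma adjusted p = 0.317). A second Tagln probe gave 0.60 and 1.23 and a difference of 1.04 (adjusted p = 0.567 in limma). These 3 probes gave the sign of the gene's brightest probe, and each difference was smaller. Another Acta2 probe, measured in 9 tumors, was at -0.09 and -0.23 and differed by 0.81, and the other 7 probes (2 of Acta2, 2 of Trp63 and 1 each of Mylk, Oxtr and Cald1) were measured in at most 4 tumors.

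Because each adenomyoepithelioma came from 1 transgene, the members were also set against tumors of the same transgene and scan year. The p75 tumor p75-90 lay above all 3 p75 solid carcinomas for 8 of 10 genes (all but Oxtr and Cald1), as it did for 27.5% of all probes, and was the highest of 9 p75 tumors for 7, against 14.3% of all probes. The p110 tumor p110-374 lay above all 6 p110 solid carcinomas for 6 genes (Acta2, Myh11, Cnn1, Tagln, Mylk and Myl9), against 20.8% of all probes, and was the highest of 8 p110 tumors for 5, against 15.7%. It was also the tumor with the fewest probes measured (18.3%). For Trp63 they ranked 6 of 9 and 5 of 8. The gap to the mean of the solid carcinomas of the same transgene was 1.91 for p75 and 4.02 for p110 in Acta2, 2.03 and 6.25 in Cnn1, 2.41 and 5.02 in Myl9, and 1.37 and 2.65 in Mylk. The gap was larger in p110 for each of these 4. For the difference between the gaps limma called 38 probes (0.0923%) and 0 of the 10 genes, with no member's adjusted p under 0.9999.

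The adenosquamous and solid carcinomas were compared with each other for the same genes. Trp63 averaged 4.60 ± 1.42 (n = 4) in the former and 1.87 ± 2.29 (n = 9) in the latter, a difference of 2.73 (SE 1.15) with an unadjusted p of 0.0336 and an adjusted p of 0.881 in limma and an exact permutation p of 0.0378. The groups overlapped. Squamous markers lay higher in the adenosquamous carcinomas as well, 8 of 10 with a median difference of 0.84 and 7 with an unadjusted p under 0.05, against 5.43% of all probes. The first of the list, the keratin gene Krt1, was at 0.80 against -0.28 but was measured in 2 of the 4 adenosquamous and 1 of the 9 solid carcinomas. One more of the 7, Ivl, was measured in no tumor. By tumor, the median ratio of the list was 2.50 in p75-80 and 0.93 in p75-94, the 2 adenosquamous carcinomas with the highest Trp63 ratios (5.82 in both). It was 0.06 in p75-47 and -0.13 in p75-101 (Trp63 3.55 and 3.19), inside the range of the solid carcinomas (-0.16 to 0.096). The part of squamous cells in the Trp63 difference was not tested. The Trp63 difference was 4.40 with the scanner software's own normalized signals and 0.92 for the mean of the 3 Trp63 probes. Among p75 tumors alone the 4 adenosquamous carcinomas (3.19 to 5.82) lay above the 3 solid carcinomas (1.93, 3.03 and 3.06) by 1.92 on average, with an exact permutation p of 0.143. Trp63 was the 1 gene of 10 without overlap there, against 2.43% of all probes higher and 2.59% lower. The other 9 genes differed between adenosquamous and solid carcinomas by -0.77 to 0.36, with a sign that turned under at least 1 alternative for 7 of the 9, and over all tumors 0 of 10 were without overlap, against 0.209% of all probes higher and 0.199% lower. limma called 0 probes of 41174 in this comparison and 2235 had an unadjusted p under 0.05.

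Among the solid carcinomas, p75 and p110 tumors overlapped for all 10 genes, where 1.83% of all probes were higher and 1.55% lower in p75 without overlap. Acta2 averaged 0.34 ± 1.02 in the 3 p75 and -1.11 ± 2.18 in the 6 p110 tumors (difference 1.45, SE 1.26, limma adjusted p = 0.896). Trp63 averaged 2.68 ± 0.64 and 1.46 ± 2.77 (difference 1.21, SE 1.55, limma adjusted p = 0.915). Without p110-416 alone the differences were 0.74 and 0.61. That of Acta2 was 0.96 without p75-129 and 2.55 with median centering. That of Trp63 was 0.69 without p110-314, 1.94 without p110-143, 2.01 with median centering, 3.24 with the scanner software's own normalized signals and 0.35 for the mean of its 3 probes. limma called no probe here and 2116 had an unadjusted p under 0.05. The p110 solid carcinomas had the wider spread in both genes.

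**Figure D4:**
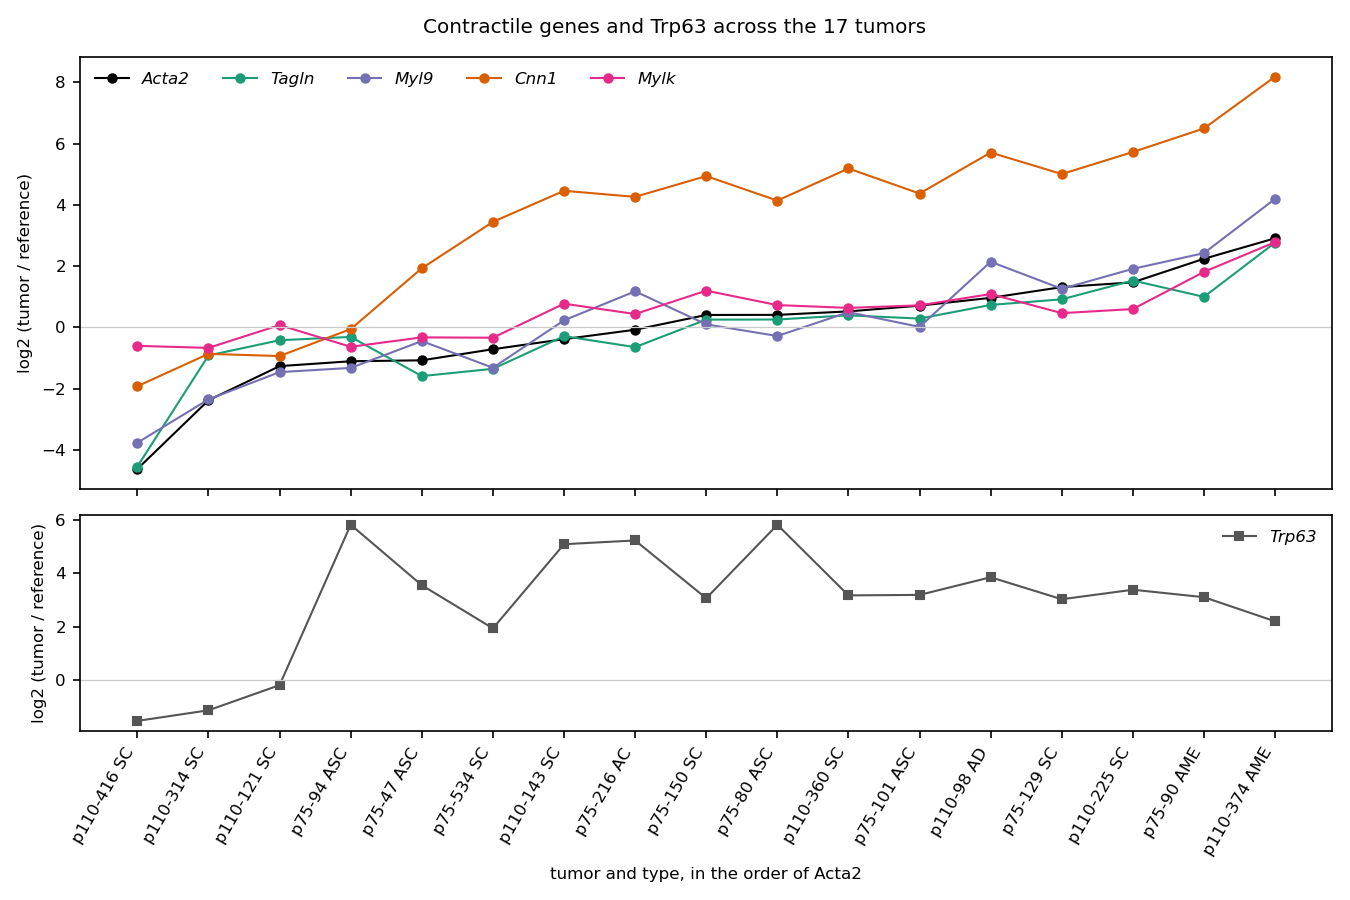
Log2 ratio of tumor to reference of Acta2, Tagln, Myl9, Cnn1 and Mylk (upper panel) and Trp63 (lower panel) in the 17 tumors, placed in the order of their Acta2 ratio and named with the type (abbreviated as in the plot by type). The 5 contractile genes are low in p110-416 (Acta2 -4.62, Tagln -4.54, Myl9 -3.77) and highest in p110-374, whereas Trp63 peaks at 5.82 in p75-80 and p75-94.

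Ranked over the 17 tumors, p110-374 had a median rank of 1.5 for the 10 genes and was among the 3 highest for 7, of which Actg2 was not measured there. The solid carcinoma p110-225 came next with a median rank of 3, among the 3 highest for 6 genes, of which Cald1 was not measured there, followed by p75-90 and the adenoma p110-98 with a median rank of 4 each. Oxtr and Cald1, which count in these medians, were measured in none of the 4 tumors. At the other end, p110-416 had a median rank of 17 and was among the 3 lowest for 7 genes, of which Mylk, Cald1 and Trp63 were not measured there. The 3 tumors p110-374, p110-98 and p110-225, high here, are also those whose reference far outshone the tumor (above). The share of probes measured and the Acta2 ratio were correlated at r = -0.46 over the 17 tumors (adjusted p = 0.0896, permutation test; rho = -0.55, adjusted p = 0.0763). The value was -0.09 in the 9 p75 tumors and -0.79 in the 8 p110 tumors (adjusted p = 0.0557, exact permutation), where rho was -0.86 (adjusted p = 0.0321, exact permutation). Without p75-129 and p110-374 r was -0.67 (adjusted p = 0.0173, permutation test) and rho -0.67 (adjusted p = 0.0226), and with median centering of the ratios r over all tumors was 0.07 (adjusted p = 0.790). For Trp63 the same correlation was -0.18 (adjusted p = 0.487, permutation test). The part of depth in the ratios was not tested. The p-values of each set were adjusted over 3 relations.

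The third relation was that of Acta2 with Trp63, the contractile marker and the basal nuclear factor. Over the 17 tumors r was 0.51 (p = 0.0388, adjusted p = 0.0896, permutation test) and rho was 0.20 (adjusted p = 0.607). In the 9 p75 tumors r was -0.27 (exact permutation, adjusted p = 0.966) and in the 8 p110 tumors 0.72 (exact permutation, adjusted p = 0.0624). Without p110-416 and p110-314, the 2 tumors farthest from the median of Acta2, r was -0.08 (permutation p = 0.774), so the relation rests on those tumors. Tumors with high Trp63 and low Acta2 were seen, such as p75-94 (5.82 and -1.11), and the adenomyoepitheliomas had the highest Acta2 with Trp63 at 3.1 and 2.20.

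**Figure D5:**
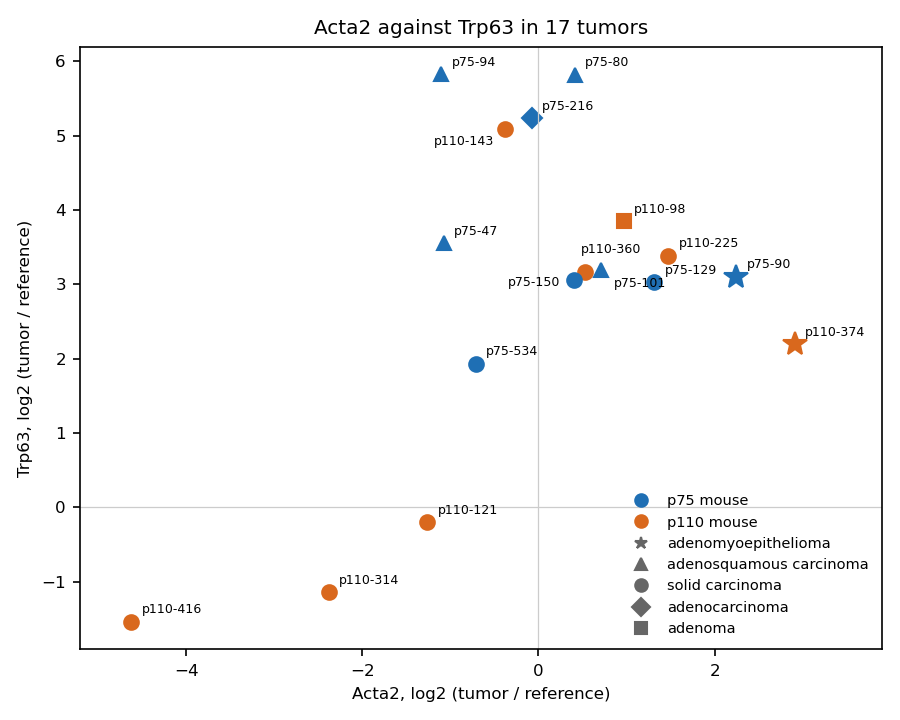
Log2 ratio of Acta2 (horizontal) and of Trp63 (vertical) in the 17 tumors, 1 labeled point a tumor, with the shape giving the histological type and the color the transgene. The adenomyoepitheliomas (stars) lie farthest right (2.24 and 2.91) at Trp63 ratios of 3.1 and 2.20, and p110-121, p110-314 and p110-416 lie below 0 on both axes.

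Of 11381 other genes measured in at least 9 tumors, those whose ratios followed Acta2 most closely over the 17 tumors were Tpm2 (r = 0.943), which encodes β-tropomyosin, Myl9 (0.940), Tagln (0.937), Cnn1 (0.924) and Tgfb1i1 (0.896). So 3 of the 5 closest were members themselves. Mylk ranked 12 (0.838) and Myh11 ranked 253 (0.597), while Trp63 ranked 677 (0.507) and Actg2 ranked 2292 (0.337). For Trp63 the closest were Trim29 (0.911), Col17a1 (0.907), a collagen of the basal cell's anchoring plaques, Lmo1 (0.884), Snai2 (0.869) and Ptpn13 (0.866), with Cnn1 the closest member (0.510). Between members r ran from -0.37 (Actg2 and Oxtr) to 0.94 (Acta2 and Myl9). These are descriptions over tumors that share the reference and a range of depths.

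Other genes of the contractile apparatus were described by count. No gene of any list below was called by limma in a comparison of histological types. Of 24 other contractile and actomyosin genes, 17 had a higher mean in the adenomyoepitheliomas than in the solid carcinomas, with a median difference of 0.39, and 7 had an unadjusted p under 0.05, where 10.1% of all probes did. Of the 7, Ppp1r14a was measured in no tumor, so its ratios rest on tumor signals not above background. Among the others Smtn, the gene of smoothelin in contractile smooth muscle, was at 0.57 against -1.0 (difference 1.56, SE 0.44, limma adjusted p = 0.293), and Lmod1, which starts actin filaments in smooth muscle, at 4.07 against 1.63 (difference 2.44, SE 1.04, limma adjusted p = 0.461). The 4 genes of SRF and its coactivators had a median difference of 0.16. Srf itself was at -0.58 against -0.49, and Myocd, the smooth muscle coactivator of SRF, was measured in 2 tumors.

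Of 14 genes of the p53 family and known p63 targets, 11 were higher in the adenomyoepitheliomas than in the solid carcinomas (median 0.90). In limma 5 of the 14 had an unadjusted p under 0.05, where 10.1% of all probes did. Trp53, the gene of p53, was at 0.42 against -0.82 and its relative Trp73 at 0.66 against 0.19. Both belong to the p53 family, and no target is named here. Of 15 other basal and myoepithelial markers 13 were higher (median 0.62), and 2 of the 15 had an unadjusted p under 0.05 in limma. Krt17, a basal keratin, was at 6.22 against 2.99 without overlap, and Mme, which encodes the myoepithelial surface marker CD10, at 1.18 against 0.70, measured in 1 of the 2 adenomyoepitheliomas and 5 solid carcinomas. Of 13 luminal markers 9 were higher (median 1.38), and 3 of the 13 had an unadjusted p under 0.05 in limma. Krt8 was at 2.80 against 0.94 and Krt18 at 3.01 against 0.40, the simple keratins of luminal cells. Of 10 squamous markers 7 were higher (median 0.11), and 2 of the 10 had an unadjusted p under 0.05 in limma. Krt1 was at 0.29 against -0.28 (measured in 1 of the 2 adenomyoepitheliomas and 1 solid carcinoma) and Krt10 at 1.58 against 0.63. Against the adenosquamous carcinomas the medians were 0.33 for other contractile genes, 0.087 for the p63 group, 0.20 for basal, 1.25 for luminal and -0.48 for squamous markers.

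Smooth muscle of vessels carries the same contractile genes, so markers of other cells were counted beside the members. Of 10 vascular smooth muscle and pericyte markers, p75-90 and p110-374 had 3 or 4 measured, against 6 or 7 in adenosquamous and 4 to 9 in solid carcinomas. The median ratio of the list was -0.01 and 0.10, against 0.08 to 0.81 and -0.06 to 1.04. Des, the gene of desmin, was measured in 1 tumor and Rgs5, a pericyte gene, in 2. The means of 4 of the 10 were higher in the adenomyoepitheliomas than in the solid carcinomas, with a median difference of -0.21. The 4 were Notch3 (2.55 against 1.61) and Rgs4 (2.60 against 1.18), each measured in all 17 tumors, and Cspg4 (-0.78 against -1.23) and Rgs5 (0.17 against 0.15), neither measured in an adenomyoepithelioma. The largest differences of the list lay the other way, with Kcnj8 at 0.99 against 3.82, Abcc9 at 0.63 against 2.39 and Mcam at -0.09 against 1.47. Kcnj8 was measured in 1 adenomyoepithelioma and Abcc9 and Mcam in neither. These genes were named after their values were seen. Of 8 endothelial markers 1 was higher in the adenomyoepitheliomas than in the solid carcinomas (median -0.26). Pecam1 was measured in 1 tumor, and Cdh5 was at 0.41 against 1.72, measured in neither adenomyoepithelioma and in 7 solid carcinomas. The 1 higher was Vwf, at 3.94 against 1.53 (unadjusted p = 0.0462, adjusted p = 0.484 in limma) and measured in all 17 tumors. Lower were Kdr, at 0.46 against 2.35 (unadjusted p = 0.0151, adjusted p = 0.395 in limma), without overlap and measured in neither adenomyoepithelioma, and Emcn, at 1.65 against 3.96 (unadjusted p = 0.0377, adjusted p = 0.467 in limma), measured in both. Of 10 fibroblast markers 6 were higher (median 0.22), with Col1a1 at -2.90 against -2.50 and Col1a2 at -1.88 against -2.63. Dcn, the gene of decorin, named after its values were seen, was at 2.53 against -0.96 (unadjusted p = 0.0394, adjusted p = 0.470 in limma). Of 8 skeletal muscle markers 3 were higher (median -0.06), with the myosin genes Myh1 at 1.02 against 0.42 and Myh2 at 1.23 against 1.32, each measured in 1 of the 2 adenomyoepitheliomas. The largest difference of this list was that of Tnni2, which encodes a troponin of fast skeletal muscle and was measured in all 17 tumors. It was at 3.93 in p75-90 and 3.53 in p110-374, below p75-150 (6.73) and above every other tumor, with a mean 3.59 above that of the solid carcinomas (SE 1.85, limma adjusted p = 0.546), a larger difference than that of Acta2. The skeletal muscle list stood apart in the solid carcinoma p75-150, at a median ratio of 5.75 with 7 of 8 genes measured, against at most 0.26 in the other 16 tumors. Without p75-150 the differences from the solid carcinomas were 3.33 for Acta2, 4.83 for Cnn1, 2.18 for Mylk and 3.94 for Myl9. The medians against the adenosquamous carcinomas were -0.04 for vascular, -0.15 for endothelial and 0.09 for fibroblast markers. For skeletal muscle markers 6 of 8 were higher there (median 0.38), and 2 of the 8 had an unadjusted p under 0.05 in limma, against 12.8% of all probes. The part of all these cells in the members' differences was not tested.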

How the data were processed

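Two-color Agilent arrays (38 arrays, 15 slides, 10 scan days) held each of 17 tumors with dyes swapped against one reference. The authors deposited scanner intensity values (Agilent Feature Extraction) and a table of log2 ratios. Recomputing normexp background correction (offset 50), loess and averaging over arrays of a tumor gave the deposited log2 table to within 4.982e-08, so tumor over reference is its direction, and it was used as deposited. Types were compared with limma 3.58.1 in R 4.3.3 over all 17 tumors and 41174 probes (5 types as groups, Benjamini-Hochberg adjusted), and single genes also with exact two-sided permutation tests. Each tumor came from another mouse.

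A gene is named by its brightest probe. All 10 members are named, and of other lists the genes called (none) or else the first 2. Notch3, Rgs4, Cspg4, Kcnj8, Abcc9, Mcam, Vwf, Kdr, Emcn, Dcn, Tnni2, Ivl and Ppp1r14a lie outside this rule and were named after their values were seen. The 5 genes most like Acta2 and Trp63 were taken by r. The members and lists were chosen with earlier results of these data known. Probe positions are the array design's (mm7). No transcripts of that build were used, so exons and UTRs are not placed. Only the limma step was run on simulated data, which were log2 ratios per probe and tumor. Background correction, loess and averaging over arrays were not part of that. Alternatives were other background corrections and scalings, single dyes, slide, scan day and scan year as blocks, probe filters, subsets of tumors and leaving out each tumor.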

Additional observations from a re-analysis of the deposited data

Results flagged for a closer look

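Tagln in the solid carcinoma p110-416, at a log2 ratio of -4.54, lay far from the other 8 solid carcinomas, of which the next was at -1.35. The gap was 0.525 of the range of the group, above Dixon's 95% critical value for 9 samples. Of 20 groups examined for the 10 genes (adenosquamous and solid carcinomas) this was the 1 beyond the critical value, and chance gives about 1 in 20. The probe was measured in that tumor, which was also the lowest of all 17 for Acta2, Cnn1 and Myl9, each measured there. Its Cald1 and Trp63 ratios were the lowest as well, with a tumor signal not above background.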

How the results depend on the processing

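Of 299 values of the 10 genes against solid carcinomas under alternatives, 291 kept their direction and their side of the threshold, as did 228 of 239 against adenosquamous carcinomas. For adenosquamous against solid carcinomas 44 of 309 turned their sign (11 of Myl9, 10 each of Cnn1 and Oxtr, 4 each of Tagln and Mylk, 3 of Acta2 and 2 of Cald1), and Myh11 ran from -4.15 to -0.28. For p75 against p110 solid carcinomas 10 of 229 turned, none of them of Acta2 or Trp63. No member was called except with slide as a block over single arrays, which called 4 (solid) and 3 (adenosquamous) members with 2210 and 2038 probes. That fit counts arrays of one tumor as separate samples, so its p-values are too small. It gave 402 probes for adenosquamous against solid carcinomas and 114 for p75 against p110. Probe counts against solid carcinomas were otherwise 12 without background correction, 0 with median centering, 5 in the tumor color without the reference, 9 with the tumor in Cy5 only, 142 in p75 and 2 in p110 tumors, 7 with only the types compared and 99 without p110-374, p110-98 and p110-225, the 3 tumors of brightest relative reference. Against adenosquamous carcinomas they were 6 without background correction and for the mean of a gene's probes, 0 with median centering and without the reference, 23 with Feature Extraction signals, 38 with the tumor in Cy3 only, 7 with scan year as a block, 176 in p75 tumors, 295 with only the types compared and 80 without the 3 tumors. Adenosquamous against solid carcinomas gave 1 with Feature Extraction signals, and p75 against p110 gave 3 without the reference. With median centering, members higher without overlap were 1 against solid carcinomas (4.95% of all probes) and 3 against adenosquamous carcinomas (19% of all probes). The 1 p75 adenomyoepithelioma lay above all p75 solid carcinomas for 8 members, as it did for 27.5% of all probes.

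Signs turned against solid carcinomas for Actg2 (-0.49) and Trp63 (-0.16) with median centering, Trp63 (-0.0564) with slide as a block and Cald1 (-0.0432) in p75 tumors. Against adenosquamous carcinomas they turned for Actg2 (-0.44) and Cald1 (-0.10) with median centering, and for Cald1 with the mean of probes (-0.0348), the tumor in Cy5 (-0.0682), and in p75 tumors and without the 3 tumors (-0.0867 in both). The cause was not tested. The correlation of Acta2 with Trp63 was -0.27 in p75 tumors and -0.0813 without 2 tumors. That of the measured share with Acta2 was 0.0701 with median centering and -0.67 without 2 tumors, and with Trp63 0.13 with median centering and 0.0220 in p75 tumors.

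Leaving out 1 tumor at a time gave 9 (without p75-129) to 194 probes (without p110-225) against solid carcinomas, 6 to 217 (without p75-90) against adenosquamous carcinomas, 0 to 27 (without p75-101) for adenosquamous against solid and 0 to 1 for p75 against p110. Cald1 against adenosquamous carcinomas ran from -0.10 to 0.31. Where 1 adenomyoepithelioma is left, it is assumed to vary like the other types. No scan day correlation could be estimated among solid carcinomas, so that block was not run for p75 against p110. No paired analysis was made because each tumor came from another mouse. Low tumor signal limits Oxtr and Cald1 in nearly all tumors.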
